A study of Mus musculus with 6 samples.

Results

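The genes described here are the replication-dependent histone genes, 69 of the 49585 rows of the deposited table, which were taken by name. Every row whose name begins with *Hist1h*, *Hist2h*, *Hist3h* or *Hist4h* was taken, and 1 row with a pseudogene name was left out. By type they comprise 6 genes of the linker histone H1, 20 of H2A, 18 of H2B, 12 of H3 and 13 of H4. RNA-seq had been performed on bone marrow monocytes of mice on a high-fat diet, with 3 libraries labelled Syk+/+ and 3 labelled Sykdel/del, to find genes that lie downstream of the spleen tyrosine kinase SYK.

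Both genotypes carried Rosa26CreER(T2)+/+, a Cre recombinase expressed throughout the body that acts on floxed DNA once tamoxifen is given, and had been on the diet for 8 weeks, which began at 8 weeks of age according to the methods. In Sykdel/del the floxed *Syk* gene had been deleted with oral tamoxifen at 200 mg/kg on 3 days. The deletion was systemic and not limited to monocytes, and the paper reports checking it by PCR and western blotting in several organs. Whether Syk+/+ mice also received tamoxifen is not given in the sources used here, and an effect of the drug and one of the deletion cannot then be told apart. The cells came from the marrow through a kit that removes other cell types. The libraries are described as n = 3 per group, from mice, and as triplicates. Whether each held 1 mouse or a pool is not given in the sources used here, so the p-values measure the spread between these libraries, which may in part be technical.

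Cells make replication-dependent histones in S phase, when newly copied DNA has to be wrapped into nucleosomes. Each nucleosome has a core of H2A, H2B, H3 and H4, and H1 binds the DNA between cores. Their mRNAs are short, lack introns, and end in a conserved stem-loop in place of a poly(A) tail. The stem-loop is bound by the protein SLBP and cut downstream with the help of the U7 snRNP, and the mRNA is degraded when DNA synthesis stops. Libraries selected on poly(A) miss most of these mRNAs. The present libraries had been depleted of rRNA instead, and histone mRNAs were therefore among the RNAs they could hold.

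The stem-loops are shown because they define the class and because H4 genes differ from the other types in their stem. A stem of 6 paired bases around a loop of 4 was found 21 to 58 bases after the stop codon in 45 members, of 52 whose transcript in GENCODE M21 (GRCm38) runs more than 20 bases past the stop codon. In all 33 such genes of H1, H2A, H2B and H3 the first arm of the stem was GGCTCT. In the 12 such H4 genes it was GGCCCT in 10 and GGTCCT in 2. The search used a fixed pattern, GGYYYT, the loop TYTN and ARRRCC (Y is C or T, R is A or G, N is any base). Stems outside this pattern would have been missed, so the bases that the stems share are partly set by the search. The arms are in capitals below, with the loop between them and up to 5 flanking bases on each side, written as DNA, 5′ to 3′, from the GENCODE transcripts. *Hist1h1c* (H1), *Hist1h2ab* and *Hist2h2ac* (H2A), *Hist1h2bb* (H2B), *Hist1h3b* (H3) and *Hist1h4d* (H4) are among the members with the highest levels of their types.
Hist1h1c: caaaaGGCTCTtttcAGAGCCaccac
Hist1h2ab: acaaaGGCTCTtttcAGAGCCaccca
Hist2h2ac: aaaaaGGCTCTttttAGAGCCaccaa
Hist1h2bb: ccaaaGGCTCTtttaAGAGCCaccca
Hist1h3b: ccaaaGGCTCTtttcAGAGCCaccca
Hist1h4d: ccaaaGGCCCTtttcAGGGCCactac
The transcripts of *Hist1h4m* and *Hist1h4n*, copies whose values are compared further on, carry the same stem and loop as *Hist1h4d*, with other flanking bases.
Hist1h4m: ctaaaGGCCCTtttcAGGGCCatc
Hist1h4n: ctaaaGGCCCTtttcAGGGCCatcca

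The annotation did not end every gene near its stem-loop. In 22 of the 45 members the transcript ended within 80 bases of the stem-loop, as a cut histone mRNA does, while in 23 it ran further, and 14 of these 23 had the poly(A) signal AATAAA after the stem-loop. The median normalized count per kilobase of coding sequence was 2101 in the former and 3618 in the latter, a difference between genes of other types and lengths that was not tested. This measure leaves out annotated bases past the stop codon, of which the latter have more, so it does not compare these groups on equal terms. Per kilobase of annotated exon, *Hist1h1d* of the latter had 825 in place of 9201. *Hist1h2ab* of the former had 3352 in place of 4035.

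The promoters are shown for members picked by their rank in estimate, p-value or level and for a pair that shares its promoter. None of these members passed the genotype test. RefSeq windows (GRCm38.p6, 250 bases before to 50 after the start) were matched for 61 members, of which *Hist1h2be* had 2 starts, giving 62 windows. Motifs were searched on both strands in all 32851 windows of the RefSeq table, overlaps included. CCAAT was present in all 50 windows of H1, H2A, H2B and H3 genes and in 3 of 12 H4 windows, and in 37.4% of all windows. GGTCC was present in 11 of 12 H4 windows and in 45.5% of all windows. The octamer ATTTGCAT was in 7 of 17 H2A and 7 of 17 H2B windows and in none of the H1, H3 or H4 windows, against 1.74% of all windows. TATAAA was in 35 of the 62 member windows (13.6% of all windows). Capitals in the sequences mark these motifs on either strand. *Hist1h2bb* (chr13:23746484-23746783, plus strand) had the lowest Sykdel/del value, relative to Syk+/+, of the members with a high count. *Hist1h2ba* (chr13:23934107-23934406, minus strand), a testis H2B gene, had the smallest p-value of all members. *Hist1h4d* (chr13:23581318-23581617, plus strand) was the H4 gene with the highest level, and *Hist2h2ac* (chr3:96220831-96221130, minus strand) shares its window with the divergent H2B gene *Hist2h2be*.
Hist1h2bb: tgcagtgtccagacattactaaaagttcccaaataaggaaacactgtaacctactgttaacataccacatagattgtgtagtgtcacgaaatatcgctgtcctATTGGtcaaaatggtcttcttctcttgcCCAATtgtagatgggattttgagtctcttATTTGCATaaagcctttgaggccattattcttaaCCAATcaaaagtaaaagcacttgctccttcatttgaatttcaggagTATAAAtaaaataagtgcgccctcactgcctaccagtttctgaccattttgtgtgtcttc
Hist1h2ba: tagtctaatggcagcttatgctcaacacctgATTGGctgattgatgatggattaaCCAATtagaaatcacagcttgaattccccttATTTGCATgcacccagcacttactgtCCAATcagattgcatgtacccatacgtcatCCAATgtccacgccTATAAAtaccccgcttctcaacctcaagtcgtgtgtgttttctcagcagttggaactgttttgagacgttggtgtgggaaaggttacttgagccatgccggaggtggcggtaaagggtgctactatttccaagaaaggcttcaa
Hist1h4d: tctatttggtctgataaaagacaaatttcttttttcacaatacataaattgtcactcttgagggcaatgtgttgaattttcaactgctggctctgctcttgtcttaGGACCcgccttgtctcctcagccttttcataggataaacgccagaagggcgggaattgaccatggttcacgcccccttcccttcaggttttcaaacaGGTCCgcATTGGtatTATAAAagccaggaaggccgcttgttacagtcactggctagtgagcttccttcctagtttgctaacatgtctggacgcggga
Hist2h2ac: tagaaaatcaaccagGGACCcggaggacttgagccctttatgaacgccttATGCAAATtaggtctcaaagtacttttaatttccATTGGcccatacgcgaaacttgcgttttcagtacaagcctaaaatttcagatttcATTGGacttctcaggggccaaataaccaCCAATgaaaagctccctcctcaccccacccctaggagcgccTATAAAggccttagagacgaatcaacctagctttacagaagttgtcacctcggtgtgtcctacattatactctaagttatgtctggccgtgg

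Depth was 6805111 to 7071823 reads assigned to genes in Syk+/+ and 4168626 to 6254375 in Sykdel/del, recovered from the deposited values, which are log2(x + 1) of a read count x scaled by 1 factor per library and called the normalized count here. It is not divided by gene length, so levels of different genes are compared per kilobase of coding sequence. A read was worth 0.923 to 1.56 normalized counts, the latter in Sykdel/del replicate 3. Libraries of a genotype differed by 2.46 to 12.1 times the sampling noise (chi-square per degree of freedom), and Sykdel/del replicate 1 stood furthest from its group. *Syk* itself had a normalized count of 4463 to 5527 in Syk+/+ and 4712 to 5094 in Sykdel/del, and since the deleted exon is not given, this level does not check the labels. The 11 monocyte markers summed to 107808 to 120020 in Syk+/+ and 120025 to 130047 in Sykdel/del, but single markers differed in direction. Of the 11, 4 had estimates below 0, among them *Csf1r*, with 7093, 9019 and 7837 in Syk+/+ and 6367, 6693 and 6998 in Sykdel/del. By the limma test described below 0 of them were called, and 2 had an unadjusted p under 0.05, both lower. The 12 markers of non-classical monocytes summed to 13844 to 19506 in Syk+/+ and 9254 to 10870 in Sykdel/del, with 9 of the 12 called as lower.

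Histone mRNA was plentiful in all 6 libraries and its total was close to equal between the genotypes. The 69 members took 1.15% to 1.27% of all reads. Their summed normalized count was 82524, 80179 and 76997 in Syk+/+ and 79250, 75234 and 75041 in Sykdel/del. The means were 79900 ± 2774 and 76508 ± 2377 (SD, n = 3), so that Sykdel/del stood at 95.8% of Syk+/+, and the genotypes overlapped. In bulk RNA, fewer cells of a type and less RNA per cell cannot be told apart, so a total like this one does not tell the number of cells in S phase from the histone mRNA of each. No p-value is given for a sum over members.

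The 5 types gave the same picture, each with overlapping genotypes. H1 genes summed to 30675 ± 1851 in Syk+/+ and 28966 ± 1220 in Sykdel/del (SD, n = 3), a log2 ratio of -0.08. For H2A the sums were 7262 ± 1060 and 6921 ± 862, a log2 ratio of -0.07. For H2B they were 12998 ± 835 and 12704 ± 1052 (log2 ratio -0.03). H3 genes gave 10476 ± 251 and 9991 ± 433 (log2 ratio -0.07), and H4 genes 18489 ± 1139 and 17927 ± 1282 (log2 ratio -0.04). All ratios were below 0, but without single libraries those of H2A, H2B and H4 moved above it, up to 0.06, 0.02 and 0.01. Per kilobase of coding sequence the order of the summed levels was H4 (58359), H1 (45526), H2B (33639), H3 (24899) and H2A (18071 over the 18 genes with a coding sequence). The divisor leaves out annotated exon bases outside the coding sequence, which differ between genes, so the order holds for this measure alone.

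**Figure D1:**
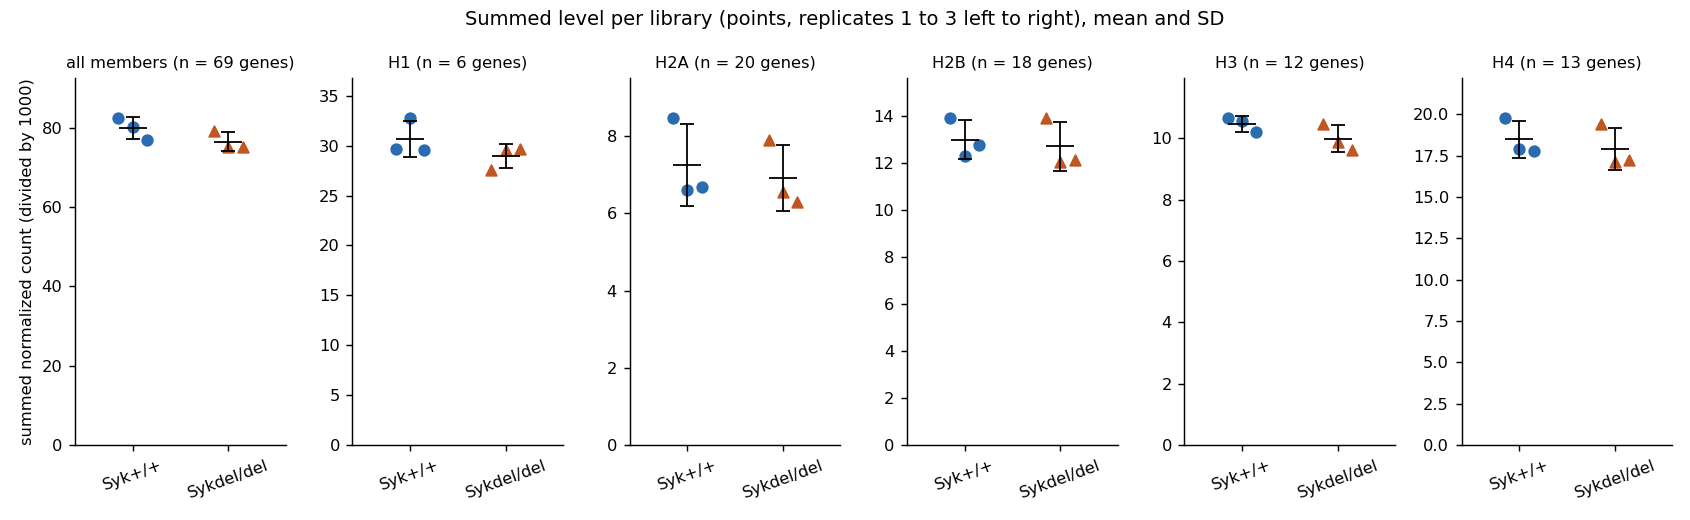
Summed normalized count (divided by 1000, axis from 0) of all 69 members and of each histone type, 1 point per library with replicates 1 to 3 from left to right, and the mean with its SD (n = 3). The genotypes overlap in every panel, and replicate 1 is the highest library of both genotypes for H2A, H2B, H3 and H4 but not for H1.

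Across single genes, no member passed the genotype test. Of the 69 members 61 reached 1 normalized count in 3 or more libraries and were tested with limma over all 14023 such features, and 0 had an adjusted p under 0.05. Over all features 0.371% were called, 0.349% as lower and 0.0214% as higher in Sykdel/del. Before adjustment, 3 lower and 2 higher members had a p under 0.05, 8.20% of 61, beside 5.26% of all features (3.32% lower and 1.94% higher). Limma-voom on the recovered reads also called 0 members. The lowest adjusted p of a member was 0.21. The 8 members that did not reach the filter were *Hist1h2aa*, *Hist1h2aj*, *Hist1h4b*, *Hist2h2aa1*, *Hist2h2aa2*, *Hist2h2bb*, *Hist2h3c1* and *Hist3h2a*, with means of 0.433 or less, and 3 of them were at 0 in every library.

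The member estimates lay close to 0. Their median log2 fold change was -0.02, beside 0.00 over all features, and 37 of 61 were below 0, or 60.7% beside 49.7% of all features. The genotypes did not overlap in 8 members that were lower and 1 that was higher in Sykdel/del, 13.1% and 1.64% of those tested. Over all features these shares were 5.19% and 4.94%, or 10.1% in either direction. Of the 49 members with a mean of at least 100, all but 1 had a 95% interval of the log2 fold change within 1 of 0, and 42 had one within 0.5. The exception to the former was *Hist1h4m*. A p-value that misses the threshold does not show equal levels, and these intervals give the sizes of difference the 6 libraries leave possible.

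**Figure D2:**
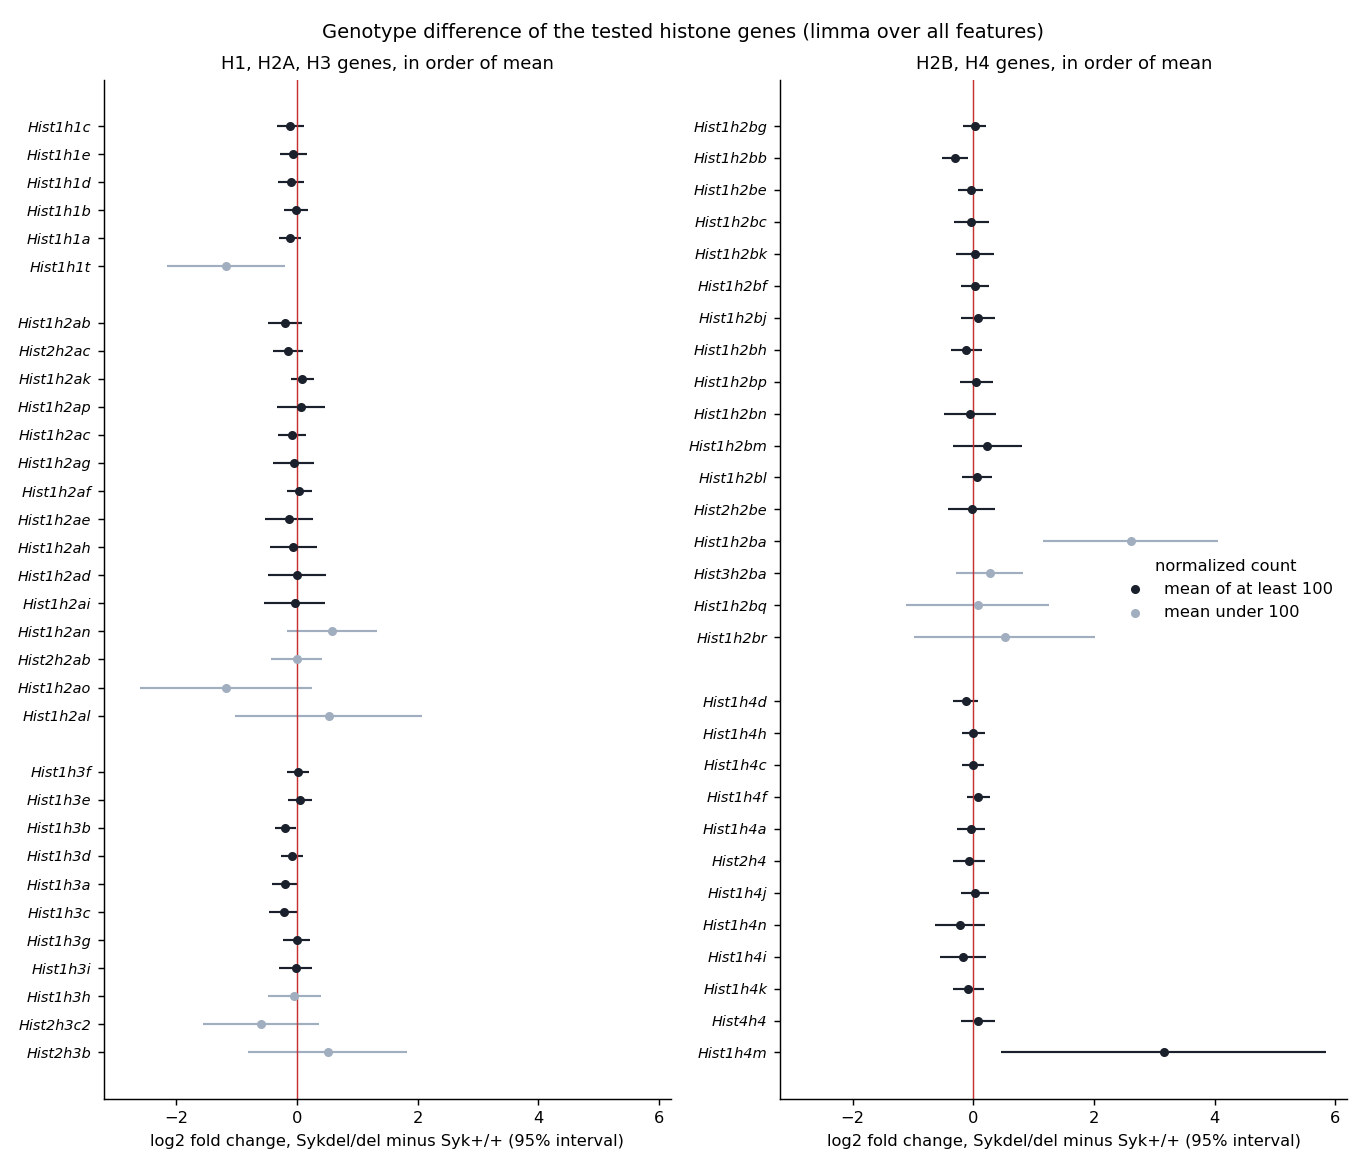
Log2 fold change (Sykdel/del minus Syk+/+, on the log2(x + 1) scale) with its 95% interval from limma for the 61 tested members, by type and in order of mean, with members of a mean under 100 in grey. Members with a mean of at least 100 other than *Hist1h4m* lie between -0.30 and 0.23, and *Hist1h2ba* and *Hist1h4m* lie furthest to the right with wide intervals.

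H1 genes had the highest counts of single members. *Hist1h1c*, *Hist1h1d* and *Hist1h1e* encode the H1 subtypes of most somatic cells, and *Hist1h1c* alone held 12.3% of the histone total. Its normalized count was 9680, 10620 and 9649 in Syk+/+ and 8745, 9357 and 9646 in Sykdel/del. The genotypes were thus just separate, with the highest Sykdel/del library 2.9 normalized counts under the lowest Syk+/+ library. The log2 fold change was -0.11 (SE 0.10, adjusted p = 1 from limma). *Hist1h1e* had 7000, 7611 and 6688 in Syk+/+ and 6233, 7070 and 7130 in Sykdel/del, which overlapped. *Hist1h1d* had 6022, 7043 and 5990 against 5671, 6069 and 5973, which overlapped as well. Of the other H1 genes, *Hist1h1b* (mean 5099) and *Hist1h1a* (mean 2016) had log2 fold changes of -0.02 and -0.12. All 6 H1 estimates were below 0, with a median of -0.11.

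*Hist1h1t*, the testis H1 gene, was at a few reads per library. Its 630 bases of coding sequence share no 50-base stretch with another annotated gene. It was counted with 11, 8 and 10 reads in Syk+/+ and 4, 5 and 1 in Sykdel/del, or a normalized count of 9.07 ± 1.31 and 3.73 ± 1.89 (SD, n = 3). The genotypes did not overlap, and the log2 fold change of -1.18 (SE 0.46) had an adjusted p = 0.77 from limma.

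H2A genes spread from 0 to a mean of 1586. H2A pairs with H2B in the nucleosome core, and 7 of its 20 genes had a mean under 10. *Hist1h2ab* led with 2089, 1496 and 1520 in Syk+/+ and 1666, 1401 and 1342 in Sykdel/del, overlapping, for a log2 fold change of -0.20 (SE 0.13). *Hist2h2ac*, in the small cluster on chromosome 3, had 1445, 1213 and 1117 against 1299, 1050 and 1044. Replicate 1 was the highest library of both genotypes for both genes. *Hist1h2ak* had 882, 968 and 894 against 1043, 948 and 929, with an estimate of 0.09 (SE 0.09). Of the other H2A genes, *Hist1h2ap* (mean 796), *Hist1h2ac* (630), *Hist1h2ag* (594), *Hist1h2af* (472) and *Hist1h2ae* (360) had log2 fold changes of -0.13 to 0.07, and *Hist1h2an*, with 35.5, 54.7 and 130.1 against 99.8, 81.4 and 106.1, had 0.58 with overlap. Over the 15 tested H2A genes the median was -0.04, 10 estimates were below 0, and no gene had an unadjusted p under 0.05 or separate genotypes.

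H2B genes held the members with the smallest p-values in each direction. *Hist1h2bb* had 2493, 2092 and 2365 in Syk+/+ and 2079, 1720 and 1837 in Sykdel/del. Every Sykdel/del library lay below every Syk+/+ library, with 12.8 normalized counts between the nearest. The log2 fold change was -0.30 (SE 0.10, 95% interval -0.52 to -0.09), with an adjusted p = 0.54 from limma. Of its 50-base stretches 59.9% are found in no other annotated gene, and its closest copy, *Hist1h2bk*, had a log2 fold change of 0.03. *Hist1h2bg*, the H2B gene with the highest mean, had 2440, 2337 and 2143 against 2312, 2301 and 2414 (log2 fold change 0.02). *Hist1h2be* had 2216, 1916 and 1873 against 2097, 1861 and 1870, which overlapped, and its annotated exons overlap those of *Hist1h1e* on the same strand. *Hist1h2bk*, *Hist1h2bf* and *Hist1h2bj* had means of 1048, 1047 and 983 and log2 fold changes of 0.03, 0.03 and 0.08. Libraries of *Hist1h2bm* were further apart, at 208, 167 and 415 in Syk+/+ and 369, 230 and 276 in Sykdel/del. Over the 17 tested H2B genes the median was 0.03 and 6 estimates were below 0.

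*Hist1h2ba* encodes the testis form of H2B, which replaces other H2B during the formation of sperm. It was counted with 17, 40 and 2 reads in Syk+/+ and 81, 70 and 40 in Sykdel/del. The normalized count was 15.9, 38.4 and 1.8 in Syk+/+ and 89.8, 73.0 and 62.4 in Sykdel/del, with no overlap. Replicate 3 of Syk+/+ was the lowest of all libraries, with 2 reads. The log2 fold change was 2.61 (SE 0.67, 95% interval 1.16 to 4.06) and the adjusted p = 0.21 from limma, with a range of 0.053 to 0.78 under the alternatives. Without Syk+/+ replicate 3 the estimate was 1.54 (adjusted p = 0.13 from limma), and without Syk+/+ replicate 2 it was 3.45 (adjusted p = 0.053 from limma). Of its 50-base stretches 38.2% also occur in *Hist1h2bj*, whose mean was 983 and whose log2 fold change was 0.08. The testis H2A gene next to it, *Hist1h2aa*, was at 0 in 5 libraries and at 1.6, a single read, in the other, so it did not pass the filter. Whether reads of other H2B genes entered the count of *Hist1h2ba* was not tested.

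H3 genes had the narrowest spread of the core types between libraries, with a median SD of 0.13 (log2) against 0.30 for H2A. *Hist1h3b* had 2111, 2171 and 2099 in Syk+/+ and 1806, 1886 and 1882 in Sykdel/del, without overlap and 213 normalized counts apart at the nearest. Its log2 fold change was -0.20 (SE 0.08, adjusted p = 0.83 from limma). *Hist1h3a* had 1080, 875 and 921 against 868, 837 and 785, again without overlap (log2 fold change -0.20, SE 0.10, adjusted p = 0.96 from limma). *Hist1h3f* and *Hist1h3e*, the H3 genes with the highest means, were overlapping, with 2241, 2320 and 2061 against 2230, 2240 and 2232 for the former and 2123, 2121 and 2072 against 2471, 2032 and 2080 for the latter. These genes lie in 1 cluster and encode near-identical proteins, and 39.6% of the 50-base stretches of *Hist1h3b* are its own. *Hist1h3c* (mean 737) and *Hist1h3d* (mean 1487) had log2 fold changes of -0.22 (SE 0.11) and -0.08 (SE 0.08), the latter with separate genotypes. Of 11 tested H3 genes 8 had estimates below 0.

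H4 genes gave the highest level per kilobase of coding sequence. *Hist1h4d* had 5429, 4695 and 4656 in Syk+/+ and 4416, 4529 and 4590 in Sykdel/del, separate by 66.3 normalized counts, with a log2 fold change of -0.12 (SE 0.10, adjusted p = 1 from limma). *Hist1h4h* had 2690, 2587 and 2538 against 2821, 2393 and 2619, and *Hist1h4c* 2313, 2222 and 2416 against 2421, 2256 and 2249. Both overlapped, with log2 fold changes of 0.00 and -0.01. *Hist1h4f* (mean 2082) and *Hist1h4a* (mean 1594) had 0.08 and -0.04, *Hist2h4* on chromosome 3 (mean 1164) had -0.07, and *Hist4h4* on chromosome 6 (mean 535) had 0.07. Over 12 tested H4 genes the median was -0.02.

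*Hist1h4m* had the largest estimate of all members and its libraries disagreed within each genotype. It was counted with 1, 4 and 234 reads in Syk+/+ and 260, 49 and 59 in Sykdel/del, or a normalized count of 0.9, 3.8 and 215.9 against 288.2, 51.1 and 92.1. Syk+/+ replicate 3 was above 2 of the 3 Sykdel/del libraries. The log2 fold change of 3.16 (SE 1.25) had an adjusted p = 0.78 from limma, and without Syk+/+ replicate 3 it was 5.21 with an adjusted p = 0.0070 from limma, the only case in which a member passed the threshold. Without Syk+/+ replicate 1 it fell to 1.79 (adjusted p = 0.90 from limma), and it was 2.46 without Syk+/+ replicate 2 and 2.47 without Sykdel/del replicate 1, so that single libraries set its size.

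The coding sequence of *Hist1h4m* (chr13:21811746-21812147, plus strand) is the same as that of *Hist1h4n* (chr13:21831767-21832196, minus strand), and 89.8% of its 50-base stretches occur there, leaving 10.2% of its own. *Hist1h4n* had 1345, 910 and 671 in Syk+/+ and 916, 814 and 695 in Sykdel/del, lowest in Syk+/+ where *Hist1h4m* was highest. Added together, they gave 1346, 914 and 887 against 1204, 865 and 787, which overlapped. With the copies summed into 1 row the log2 fold change was -0.14 (SE 0.17, adjusted p = 1 from limma) and the SD between libraries 0.33 (log2), beside 2.71 for *Hist1h4m* alone. How reads with more than 1 matching gene were assigned is not given in the sources used here, so the split between these rows is uncertain.

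**Figure D3:**
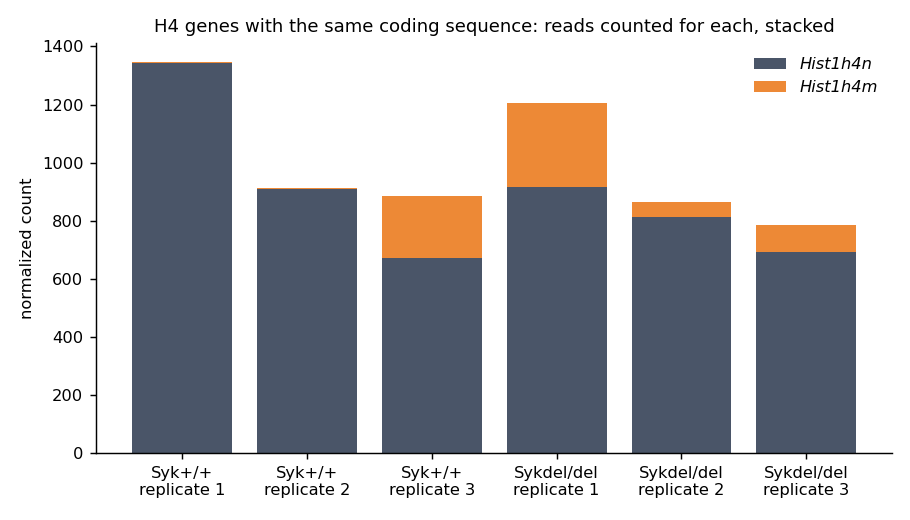
Normalized counts (axis from 0) of *Hist1h4n* and, stacked on it, *Hist1h4m* in each library. *Hist1h4m* is nearly absent in Syk+/+ replicates 1 and 2 and present in the other 4 libraries, while the summed height runs from 787 to 1346.

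Other pairs of copies had most reads in 1 row or few in either. *Hist1h2ao* and *Hist1h2ap*, with the same coding sequence, had means of 1.6 and 796, and *Hist1h2bq* and *Hist1h2br* means of 3.95 and 1.13. *Hist2h2aa1* and *Hist2h2aa2* were at 0 in all libraries but 1. Of 16 members with under 15% of their 50-base stretches to themselves 7 had a mean under 10, against 3 of 35 members with at least 50%. Across 67 members, Spearman's rho between that percentage and the level per kilobase was 0.44, a description of genes that share sequence and libraries. With only the 35 members of at least 50% the sum was 64750 ± 1972 in Syk+/+ and 61687 ± 686 in Sykdel/del (SD, n = 3), 95.3%, and the genotypes were separate by 4.4 normalized counts, an alternative chosen after the data were seen.

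Some histone genes are known to give polyadenylated mRNA as well, which outlasts S phase. Of the 5 listed here, *Hist1h1c* is given above. *Hist1h2bc* had 1435, 1089 and 1157 in Syk+/+ and 1462, 1092 and 1053 in Sykdel/del, and *Hist2h2be* had 112, 119 and 128 against 135, 138 and 87.4, both overlapping. *Hist3h2ba* had 46.8, 25.9 and 49.8 against 46.6, 48.0 and 48.4, and *Hist3h2a* was at 0 in all but Sykdel/del replicate 2, at 2.1. Without the list the total was 68530 ± 2625 and 65888 ± 2583 (SD, n = 3), or 96.1%.

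**Figure D4:**
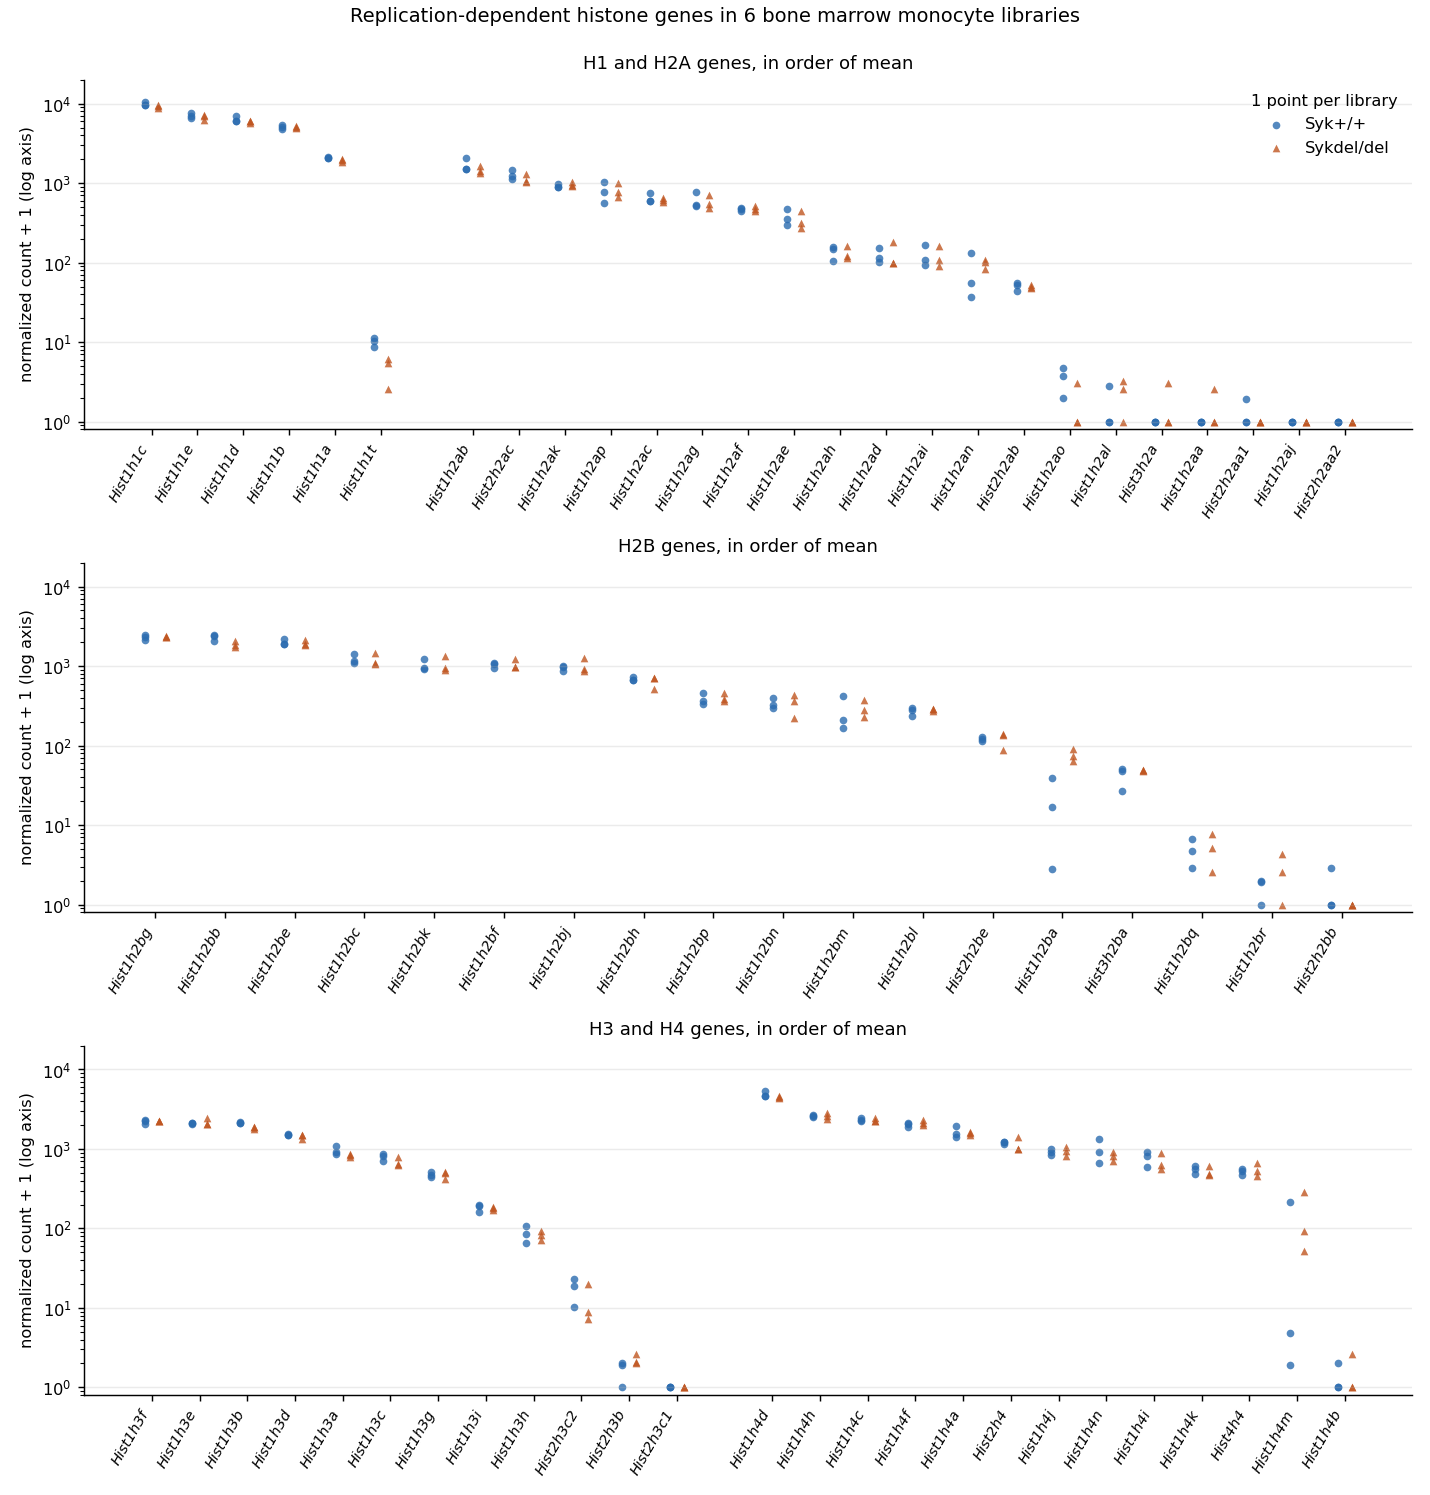
Normalized count plus 1 of each of the 69 members on a log axis, 1 point per library, by type and in order of mean. Members range from 0 to 10620, the genotypes interleave for most members, and *Hist1h2ba* and *Hist1h4m* show the widest gaps between libraries.

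Most of the summed histone count, which is not divided by length, came from 1 region. The 23 members with a mean of at least 1000 held 82.6% of the total and the 5 highest held 41.6%. The cluster at chr13:23531050-23934851 (GRCm38) had 31 members and 77.4% of the total, with a median log2 fold change of -0.06 over 29 tested. Another on the same chromosome, at chr13:21715763-22043676, had 24 members and 18.6% (median 0.02 over 23 tested). The 10 members at chr3:96219865-96270132 had 3.25%. The other members were a pair on chromosome 11, *Hist4h4* on chromosome 6 and *Hist1h2al* elsewhere on chromosome 13, and GENCODE M21 classes *Hist1h2al* and *Hist1h2aj* as pseudogenes.

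H2A and H2B genes that face away from each other across a short shared promoter were often unequal. In 13 such pairs the starts were 175 to 305 bases apart. Per kilobase of coding sequence *Hist2h2ac* had a level of 3063 and *Hist2h2be*, which starts 238 bases away, 315. *Hist1h2bg* had 6101 and its partner *Hist1h2ae* 917. *Hist1h2ak* had 2402 and *Hist1h2bn* 891, but only 47.67% and 13.55% of their 50-base stretches were their own. Neither type was the higher one in every pair, as the pairs of *Hist2h2ac* and *Hist1h2bg* already show. All 20 H2A genes overlap an annotated model on the other strand, but every such model with a row was at 0 in all libraries. Of the overlapping models on the other strand only *4930558J22Rik*, opposite *Hist1h4b*, had reads, with a mean of 121, and *Hist1h4b* had a mean of 0.433.

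H2A, H2B and H4 genes departed upwards in replicate 1 of each genotype. Of the 49 members with a mean of at least 100, 25 were highest in replicate 1 of both genotypes, or 51.0%, beside 16.9% of all 7443 features of that level. For H2A the median departure of replicate 1 from the other libraries of its genotype was 0.47 (log2) in Syk+/+ and 0.45 in Sykdel/del, with 10 of 11 genes above 0 in each. For H4 these medians were 0.13 and 0.27, and for H2B 0.12 and 0.30. For H3 they were 0.00 and 0.09, with 4 and 6 of 8 genes above 0. H1 medians were -0.06 and -0.09, with 0 and 1 of 5 genes above 0. H1 thus made up 35.9% of the histone total in Syk+/+ replicate 1 and 34.8% in Sykdel/del replicate 1, and 38.4% to 40.9% in the other 4 libraries. Over all features the medians were 0.01 and 0.00. The labels do not say what replicate numbers share between the genotypes. The median SD between libraries was 0.16 (log2) for the 49 members, beside 0.13 for all 7443 features.

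**Figure D5:**
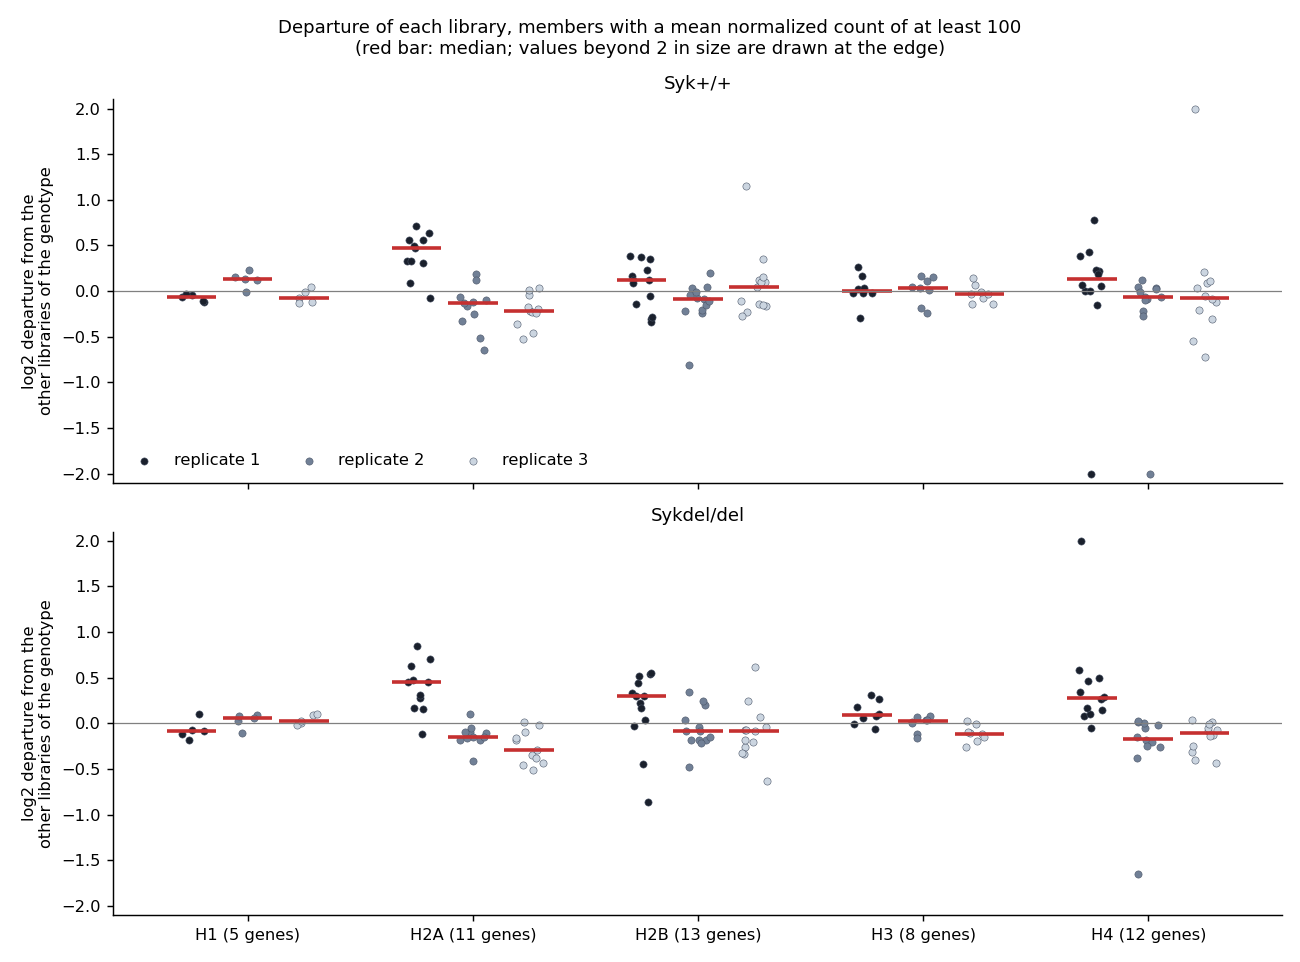
Log2 departure of each library from the mean of the other libraries of its genotype, for the 49 members with a mean of at least 100, by type, with 1 point per gene and the median as a red bar. Replicate 1 lies above 0 for most H2A, H2B and H4 genes in both genotypes while the H1 median lies below 0 in both.

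None of the lists of genes that work with these histones held a gene past the test. In the list of S phase replication genes 0 of 36 passed limma's test and 0 had an unadjusted p under 0.05. Their sums were 20723, 19135 and 20193 in Syk+/+ and 21042, 20537 and 20414 in Sykdel/del, highest in replicate 1 of each genotype. The 20 mitosis genes gave 0 as well, with sums of 43803, 45942 and 45871 in Syk+/+ and 51231, 47100 and 41684 in Sykdel/del. Replicate 1 was thus the lowest library of Syk+/+ and the highest of Sykdel/del for this list. Of 18 genes for the processing and decay of histone mRNA 0 passed, with sums of 10062 to 10436 and 10278 to 10297. *Slbp*, whose protein binds the stem-loop, had 735, 608 and 665 in Syk+/+ and 569, 631 and 670 in Sykdel/del, overlapping (log2 fold change -0.10, SE 0.10). *Npat*, a coactivator of histone transcription, had 311, 269 and 317 against 366, 311 and 272. Of 17 histone chaperones 0 passed, with sums of 16567, 15950 and 16523 in Syk+/+ and 17327, 16520 and 16510 in Sykdel/del. *Chaf1b*, a subunit of the CAF-1 complex that loads H3 and H4 onto new DNA, had 136, 133 and 147 against 167, 158 and 164, separate but with an adjusted p = 0.99 from limma.

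Histone variants listed here as replication-independent, most of which are made outside S phase as well and from polyadenylated mRNA, were also tested. Of these 11 genes 0 passed. *H2afz*, the H2A.Z variant, had 1276, 1024 and 1196 in Syk+/+ and 1182, 1410 and 1464 in Sykdel/del. *H1f0*, a linker histone of resting and differentiated cells, had 554, 520 and 570 against 511, 797 and 734 (log2 fold change 0.29, SE 0.14, adjusted p = 0.97 from limma). Sykdel/del replicate 1 was the lowest of its genotype for both, where it was the highest for most core histone genes. The summed variants showed this library apart too, at 13330 beside 16931 and 17382 in the other Sykdel/del libraries and 14933 to 15811 in Syk+/+.

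Markers of other marrow cells were present and differed between libraries. The 12 markers of neutrophil precursors summed to 10362, 7907 and 7443 in Syk+/+ and 12941, 9487 and 9832 in Sykdel/del, highest in replicate 1 of each genotype, as were most core histone genes. *Chil3*, a gene that monocytes express too, made up most of these sums, with 7108, 5491 and 4901 against 9254, 6771 and 7332. *Fcnb* was also highest in replicate 1 of each genotype, whereas *Elane* was highest in Syk+/+ replicate 2 and *Ms4a3* in Sykdel/del replicate 3. The 10 stem and progenitor markers summed to 633, 494 and 617 against 791, 571 and 651, also highest in replicate 1 of each. The sums of the S phase genes and of the histone chaperones given above were highest there too, so this was not particular to precursor markers. The mitosis sum was highest in replicate 1 of Sykdel/del but lowest in replicate 1 of Syk+/+. Erythroid markers (12 genes) summed to 501 to 1223 against 479 to 766. B cell markers (12 genes) summed to 74 to 93 against 51 to 98, with *Ms4a1*, *Rag1* and *Rag2* at 0 in every library, and 12 T and NK cell markers to 38 to 55 against 27 to 31. Plasma cell markers (8 genes) summed to 1797 to 2073 against 2228 to 2327, higher in every Sykdel/del library. The part of these cells, or of the lower non-classical monocyte markers, in the histone counts was not tested.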

How the data were processed

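RNA had been sequenced from 3 Syk+/+ and 3 Sykdel/del libraries of bone marrow monocytes, made from 500 ng of total RNA after rRNA depletion with a directional kit. The authors mapped the reads to GRCm38/mm10 (mm10 in the submitters' processing notes) and produced gene-level counts in CLC Genomics Workbench. For its version, annotation, strand setting and use of multi-mapping reads, nothing is given in the sources used here. Deposited values are log2(x + 1) for 49585 rows. The methods name TPM, but in every library 100% of the values of x were whole multiples of 1 step (within 0.06 of a read), which makes x a scaled read count, with 1 factor per library. The deposited table also holds a p-value per row from the authors' own comparison, which was not used.

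Limma (3.58.1, R 4.3.3, trended eBayes) was fitted with genotype as the factor to the log2 values of 14023 features whose x reached 1 in 3 or more libraries. The Benjamini-Hochberg adjustment was used, with a threshold of 0.05. A quasi-likelihood count model had been planned only for deposited raw counts and was not run, and the recovered reads were fitted with limma-voom as an alternative. Intervals cover the spread between libraries. On simulated data for this comparison (13503 genes) the fit recovered 78% of 100 genes with a log2 change of 1 and 98% of 100 with a change of 2, and called 9 unchanged genes.

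Members given with every library are the 3 highest of each type, the 6 with the smallest p-value, any past the threshold, and genes listed as giving polyadenylated mRNA. Of other lists, up to 4 genes with the smallest p-value could be named, while *Slbp* and *Npat* were chosen for their roles, and other members are named in passing. *Hist1h2an*, *Hist1h2bm* and *Hist1h4n* are given with every library although the rule did not name them, and were chosen after their values were seen. The members and lists were chosen with earlier results of these data known. Identity of copies was measured as the share of 50-base stretches of a gene's exons found in no other GENCODE M21 transcript. Tables were made with Python 3.11.15 and pandas 2.3.3, and figures with matplotlib 3.10.9. Alternatives were other scalings, pseudocounts of 0.5 and 5, other filters, limma without the trend, limma-voom on recovered reads, a replicate block, each library left out, and other choices of members, of which 3 were added after the data were seen.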

Additional observations from a re-analysis of the deposited data

How the results depend on the processing

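Over 17 alternatives to the fit, 0 members passed the threshold in all but 1. Leaving out each library in turn gave 0 to 1 members, and the 1 was *Hist1h4m* without Syk+/+ replicate 3 (log2 fold change 5.21). The count of all features called was 6 without the trend and 34 by limma-voom, in place of 52, and 4 to 92 with a library left out (10 without Syk+/+ replicate 1, 4 without replicate 2, 34 without replicate 3, 92 without Sykdel/del replicate 1 and 18 without replicate 2). Members at an unadjusted p under 0.05 numbered 2 to 12 in place of 5, with 12 (11 of them lower) without Sykdel/del replicate 1, 3 without Syk+/+ replicate 1, 3 without Sykdel/del replicate 3 and 2 without the trend, and the cause was not tested. With a replicate block the fit called 53 features and 0 members, and 8 members had an unadjusted p under 0.05. Same-numbered libraries did not deviate together over all features (correlations 0.019, 0.041 and -0.027), so the numbers were not taken as pairs. Of the 22 tested members named by the rule above, 12 kept the sign of their estimate and 21 their side of the threshold under every alternative. *Hist1h2an*, *Hist1h2bm* and *Hist1h4n*, which were chosen after their values were seen, were not part of this count. The log2 ratio of the summed histone count stayed between -0.09 and -0.04 over 14 alternatives, and the median member estimate between -0.08 and 0.03 over 17. Members at a few reads, such as *Hist1h1t*, are measured least well in Sykdel/del replicate 3, the shallowest library.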
